A study of Macaca mulatta with 304 samples.

Results

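The circadian clock genes CRY1, CRY2, PER2, PER3, CLOCK, NR1D1, NR1D2, DBP and TEF were followed in whole blood of rhesus macaques before and after irradiation of the thorax. These 9 genes were taken by symbol from a table of read counts that lists 21070 genes. All 9 were listed, and all 9 passed the filter on low counts that left 13751 genes for testing (3 or more counts in 80% or more of the samples). The blood samples came from 28 animals (Macaca mulatta, Chinese sub-strain, 3 to 5 years old at the start). The lower dose of 9.8 Gy was given to 12 animals and the higher dose of 10.7 Gy to 16, and each dose group held as many males as females. The control of an animal was its own blood drawn 2 days before irradiation (24 samples), and 280 samples were drawn from Day 3 to Day 270. All animals received tramadol or buprenorphine from Day 4 to Day 25, and animals with rapid breathing received the glucocorticoid dexamethasone. Which animals were given dexamethasone, and when, is not in the labels, and the time of day of each draw is not given in the sources used here. These samples hold no sham-irradiated animal, so irradiation, drugs, repeated bleeding and time since the control cannot be told apart.

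The circadian clock is a feedback loop of transcription that runs in almost every cell, leukocytes included. CLOCK pairs with BMAL1 (gene ARNTL) and activates genes that carry E-boxes, among them the PER and CRY genes, whose proteins return to the nucleus and repress that pair. NR1D1 and NR1D2 encode the REV-ERB nuclear receptors, which repress ARNTL, and DBP and TEF encode PAR bZIP factors, which pass the rhythm on to genes with D-boxes. Levels of several of these transcripts therefore depend on the hour of the draw, and glucocorticoids are known to shift the clock in peripheral tissues.

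The least deep sample had 2840219 reads on genes and the deepest 23638161, and the medians were 11697186 in controls and 6935207 after Day 90. The labels give each sample a library number. Series A and B are used here for the samples in the lower and the higher of 2 separate ranges of numbers, and series C for those whose number is 0. The labels do not say what these numbers stand for. Of the 24 controls, 20 were of series A and 4 of series C, and those 4 all came from 10.7 Gy animals. All 24 animals with a control had draws up to Day 21 in the series of that control. From then to Day 90, 20 of 24 had none in that series, and after Day 90 13 of 14 had none, so library series and late time cannot be told apart in those animals. One library stood apart. In the Day 40 draw of the 10.7 Gy male B2007, erythroid markers took 12.3% of all counts against a median of 1.11% over all samples, and only 3 counts fell on TEF.

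In the Mmul_10 assembly with RefSeq annotation all 9 members are protein-coding genes on 9 different chromosomes. CRY2 lies on the minus strand of chromosome 14 (19891165 to 19929634) and CRY1 on the minus strand of chromosome 11 (106673985 to 106780347). PER2 is on chromosome 12 (125647620 to 125693979) and PER3 on chromosome 1 (216647235 to 216733089). CLOCK, on chromosome 5 (78085395 to 78206260), is the only member on the plus strand. NR1D1 is on chromosome 16 (51230996 to 51239240), NR1D2 on chromosome 2 (23677388 to 23713771), DBP on chromosome 19 (48614219 to 48630661) and TEF on chromosome 10 (10111103 to 10127240). Exons of PER3 share 92 bases with UTS2, and exons of DBP also overlap those of SPHK2, both on the opposite strand. Whether counting used strand is not given in the sources used here, so reads in these overlaps cannot be assigned with certainty. Paralogs shared no exact run longer than 27 bases (DBP with TEF), against reads of 150 bases.

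Promoters were searched on both strands for 3 clock motifs, from 250 bases before to 50 bases after each annotated gene start. The E-box CACGTG, bound by the CLOCK complex, was found in 1 of the 9 members (TEF) and in 7.73% of 20742 promoters. The D-box TTATGTAA, bound by PAR bZIP factors, was found in 1 member (PER3) and in 0.723% of promoters. AGGTCA, the core site bound by REV-ERB and ROR receptors, was found in 1 member (CRY2, starting at base 6 of the gene) and in 14.7% of promoters. No match overlapped another. The 250 bases before the gene start are shown 5′ to 3′ on the gene's strand for CRY2 and DBP, the members whose levels ran closest together over all samples, and for PER3 and TEF, where capitals mark the motif.
CRY2: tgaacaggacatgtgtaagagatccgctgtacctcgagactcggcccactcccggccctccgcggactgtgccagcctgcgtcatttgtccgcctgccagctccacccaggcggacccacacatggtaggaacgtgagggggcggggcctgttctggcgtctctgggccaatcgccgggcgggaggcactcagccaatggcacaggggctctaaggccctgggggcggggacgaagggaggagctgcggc
DBP: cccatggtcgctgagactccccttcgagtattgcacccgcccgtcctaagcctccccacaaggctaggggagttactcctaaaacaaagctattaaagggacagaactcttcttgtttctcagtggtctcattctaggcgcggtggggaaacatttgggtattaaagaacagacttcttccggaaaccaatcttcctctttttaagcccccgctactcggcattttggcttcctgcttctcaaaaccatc
PER3: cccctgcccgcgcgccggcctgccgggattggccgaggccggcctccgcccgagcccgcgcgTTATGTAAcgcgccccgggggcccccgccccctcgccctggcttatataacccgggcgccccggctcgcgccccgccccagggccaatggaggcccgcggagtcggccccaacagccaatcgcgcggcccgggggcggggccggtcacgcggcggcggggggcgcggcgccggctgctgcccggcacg
TEF: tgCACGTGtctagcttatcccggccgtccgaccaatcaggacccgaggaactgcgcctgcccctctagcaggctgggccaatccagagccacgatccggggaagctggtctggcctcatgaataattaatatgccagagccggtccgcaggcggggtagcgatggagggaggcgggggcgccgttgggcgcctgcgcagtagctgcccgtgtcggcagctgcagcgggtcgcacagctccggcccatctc
The D-box of PER3 began 188 bases before the gene start (window chr1:216733090-216733339) and the E-box of TEF 248 bases before it (window chr10:10127241-10127490). In the shown windows of CRY2 (chr14:19929635-19929884) and DBP (chr19:48630662-48630911) none of the 3 motifs occurred.

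Levels of different genes were compared per length, as counts per 1000000 reads of the scaled library (CPM) divided by kilobases of exon. In the 24 controls NR1D2 was the highest member with 11.8 ± 2.35 CPM per kilobase (SD). CRY2 followed with 10.2 ± 1.58 and DBP with 9.43 ± 2.41 CPM per kilobase, and each gap between neighbours among these top 3 was smaller than the larger of the 2 SDs. CRY1 (5.48 ± 0.991), NR1D1 (5.05 ± 1.47) and TEF (4.97 ± 1.29) formed a middle group. CLOCK (3.56 ± 0.591), PER2 (3.17 ± 0.814) and PER3 (3.05 ± 0.879) were lowest. The length is the union of exons over all annotated transcripts, 11496 bases and 14 transcripts for CLOCK against 4206 bases and 1 transcript for CRY2. Before division by length these 2 genes had control means of 40.9 and 42.9 CPM, so this order depends on the annotated length. All further levels are CPM without division by length and compare a gene only with itself.

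CRY2 was highest before irradiation and lowest on Day 150. Its mean was 42.9 ± 6.63 CPM in the 24 controls (SD), with single values from 24.3 to 60.0 CPM and a median of 41.9 CPM. From Day 3 to Day 30 the daily means lay between 33.3 ± 5.23 CPM (Day 6, n = 28) and 36.4 ± 6.32 CPM (Day 21, n = 28). They were 31.6 ± 5.42 CPM on Day 40 (n = 24), 34.5 ± 8.65 on Day 60 (n = 24) and 33.99 ± 6.94 on Day 90 (n = 17). From Day 120 on the draws became few and came mostly from 9.8 Gy animals. Day 150 held 8 animals of 9.8 Gy and 1 of 10.7 Gy, and Days 180 to 270 held 5 and 1 each. The daily means thus come from changing sets of animals. The mean was 27.1 ± 6.43 CPM on Day 120 (n = 14) and 25.4 ± 5.45 on Day 150 (n = 9). With 6 animals each it was 30.3 ± 3.91 CPM (Day 180), 32.4 ± 12.5 (Day 210), 29.7 ± 5.09 (Day 240) and 27.3 ± 9.58 (Day 270). As an order by mean, the days ran from control through 21, 3, 15, 30, 60, 90, 9, 6, 210, 40, 180, 240, 270 and 120 to 150. Every gap between neighbours in this order, including the 6.49 CPM between control and Day 21, was smaller than the larger of the 2 SDs.

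**Figure D1:**
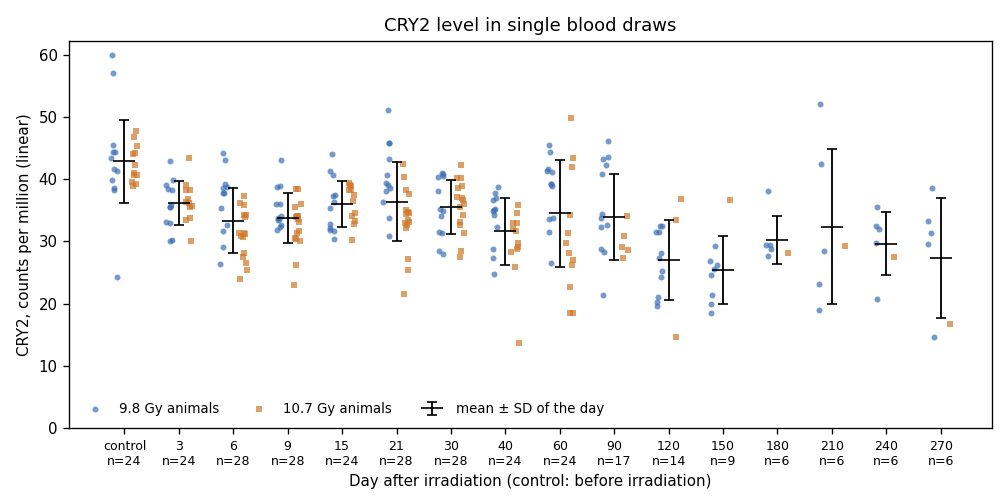
CRY2 level in single blood draws (vertical axis, CPM, linear from 0) by scheduled day (horizontal axis, with the number of samples), blue circles for 9.8 Gy animals and orange squares for 10.7 Gy animals, with the mean ± SD of each day in black. The mean goes from 42.9 CPM in controls to 25.4 CPM on Day 150, while single draws of neighbouring days overlap.

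To ask which members changed after irradiation, the counts of each animal were summed over Day 3 to 21 (early), after Day 21 to 90 (medium) and after Day 90 (late), and set against its own control by the quasi-likelihood test of edgeR, with a block for each animal. P-values were adjusted over all genes tested after Benjamini and Hochberg. A call needed an adjusted p no higher than 0.05 together with a change of 1.5-fold or more. CPM values of the sums were scaled anew in each comparison, so control values shift slightly between them. The late window held 14 animals with a control, 12 of the 9.8 Gy and 2 of the 10.7 Gy group. The same animal served as its own control, so the unit of replication is the animal. In these bulk samples, fewer cells of a type and less RNA per cell cannot be told apart.

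In the late window 4 of the 9 members were called lower (CRY1, CRY2, NR1D1 and DBP) and none higher, where 18.5% of all genes tested were called lower and 14% higher. In the early and medium windows no member was called, where 7.53% and 5.75% of all genes were. DESeq2 also called no member early or medium. Without the fold limit, 5 members were lower early, 6 medium and 5 late, and none was higher, against 49.1%, 45.3% and 55.3% of all genes passing in either direction, and at an unadjusted p under 0.05 the counts were again 5, 6 and 5, against 55.2%, 51.9% and 60.5% of all genes. The median log2 fold change over all genes was -0.13 late under this scaling, -0.03 under TMM and -0.01 under DESeq2, and the late split of all genes moved from 1919 higher and 2548 lower to 2270 and 1887 (TMM) and 2434 and 1784 (DESeq2). Under TMM the late values were -0.65 for CRY1, -0.64 for DBP, -0.53 for CRY2 and -0.54 for NR1D1, and under DESeq2 -0.62, -0.62, -0.51 and -0.52, so that only CRY1 and DBP passed the fold limit there.

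Within the library series of the control, the early window again had no member called. The medium window then held 4 animals, all of 10.7 Gy and series C, and 4 members were called lower: NR1D1 at -0.93 (edgeR, adjusted p = 0.014), DBP at -0.85 (0.0145), TEF at -0.77 (0.0204) and PER3 at -0.66 (0.0322). In that comparison 3.35% of all genes were called lower. The late window had 1 such animal and no value. In the medium comparison the 4 controls had higher mean levels of the called members than the 20 controls of series A. The means were 19.9 against 12.7 CPM (NR1D1), 56.4 against 38.9 (DBP), 31.4 against 19.1 (TEF) and 30.6 against 21.9 (PER3). The part of these control levels in the 4 calls was not tested.

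CLOCK, the activating subunit of the loop, did not pass the test in any window. Its control values ran from 22.3 to 47.3 CPM (median 40.8) and its late values from 28.8 to 49.6 CPM (median 39.1) in the 14 animals. The late log2 fold change was 0.03 ± 0.12 (SE; edgeR, adjusted p = 0.818), with 7 animals higher and 7 lower. The medium value was 0.05 ± 0.08 (adjusted p = 0.629) and the early value 0.05 ± 0.06 (adjusted p = 0.522) by the same test. On single days CLOCK passed the p limit in both directions, at -0.17 ± 0.06 on Day 3 (edgeR, adjusted p = 0.0163) and at 0.39 ± 0.08 on Day 9 (adjusted p = 0.000494), both short of the fold limit.

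CRY1, a repressor of the CLOCK complex, fell late and did not pass the test early. Control values ran from 12.6 to 27.2 CPM (median 18.5) and late values from 4.98 to 16.7 CPM (median 11.2). The late log2 fold change was -0.74 ± 0.14 (edgeR, adjusted p = 0.000321), and CRY1 was lower late in all 14 animals although the 2 ranges overlap. The early value was -0.06 ± 0.05 (edgeR, adjusted p = 0.334) and the medium value -0.23 ± 0.05 (adjusted p = 0.00081).

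CRY2, the closest relative of CRY1 and a repressor of the same complex, was already lower in the early window. Early, control values of 25.4 to 62.8 CPM (median 43.9) stood against 30.6 to 43.4 CPM (median 37.1), with CRY2 lower in 22 of 24 animals. The early log2 fold change was -0.28 ± 0.04 (edgeR, adjusted p = 8.88e-06) and the medium one -0.37 ± 0.05 (adjusted p = 1.10e-06), both significant but short of the fold limit. Late, control values of 23.96 to 59.2 CPM (median 43.1) stood against 21.2 to 32.7 CPM (median 27.9). CRY2 fell by 35.2% late, a log2 fold change of -0.63 ± 0.10 (edgeR, adjusted p = 5.59e-05), and was lower in 13 of 14 animals. The remaining animal had the lowest control value of all.

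PER2 and PER3, the period genes whose proteins act with the cryptochromes, were not called in any window. PER2 was lower early at -0.27 ± 0.06 on the log2 scale (edgeR, adjusted p = 0.000394, lower in 20 of 24 animals) and medium at -0.20 ± 0.07 (adjusted p = 0.0215). Late, PER2 ran from 15.5 to 29.3 CPM (median 19.9) in controls and from 11.1 to 34.8 CPM (median 23.5) after Day 90, and the log2 fold change was -0.00 ± 0.12 (edgeR, adjusted p = 0.991). PER3 spread widely late. Its control values ran from 10.8 to 31.8 CPM (median 19.7) and its late values from 11.5 to 47.3 CPM (median 17.4), with a log2 fold change of -0.12 ± 0.15 (edgeR, adjusted p = 0.501).

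Of the REV-ERB receptors NR1D1 fell late and NR1D2 did not pass the test in any window. NR1D1 values were 7.36 to 20.9 CPM (median 13.3) in controls and 2.86 to 13.9 CPM (median 8.41) late, lower in 11 of 14 animals. The log2 fold changes were -0.28 ± 0.08 early (edgeR, adjusted p = 0.00655), -0.55 ± 0.09 medium (adjusted p = 1.47e-05) and -0.64 ± 0.21 late (adjusted p = 0.0139). The late call of NR1D1 rested on the 10.7 Gy female B2504, whose control was of series C. Its only late draw, on Day 94, held 18 counts of NR1D1. Without this animal the value was -0.50 (edgeR, adjusted p = 0.0193), short of the fold limit. NR1D2 ran from 37.2 to 76.9 CPM (median 62.1) in controls and from 35.5 to 79.2 CPM (median 60.6) late, a log2 fold change of 0.02 ± 0.14 (edgeR, adjusted p = 0.925).

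DBP and TEF, the output factors, both had lower values late, but DBP alone was called. DBP values were 20.3 to 63.04 CPM (median 39.3) in controls and 12.4 to 37.96 CPM (median 24.4) late, lower in 12 of 14 animals. Its log2 fold change was -0.26 ± 0.07 early (edgeR, adjusted p = 0.00236), -0.43 ± 0.07 medium (adjusted p = 2.26e-05) and -0.74 ± 0.18 late (adjusted p = 0.00178). TEF went from 13.7 to 29.0 CPM (median 18.2) in controls to 8.42 to 24.2 CPM (median 16.5) late. The late value of TEF was -0.33 ± 0.14 (edgeR, adjusted p = 0.0444), with 9 of 14 animals lower.

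**Figure D2:**
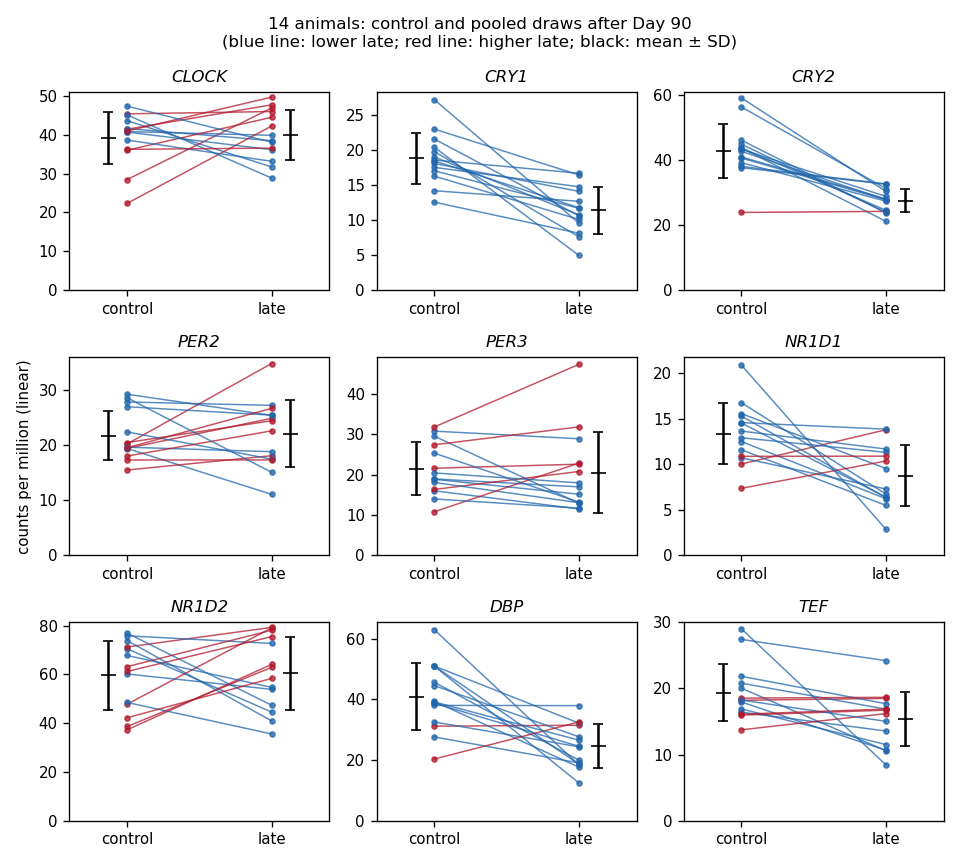
Each panel shows 1 clock gene in the 14 animals with a control and late draws, as CPM on a linear axis from 0, with a line from each animal's control to its pooled draws after Day 90 (blue where lower, red where higher) and the mean ± SD in black. All 14 lines of CRY1 and 13 of 14 of CRY2 go down, while CLOCK, PER2 and NR1D2 have 7 lines in each direction.

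Markers of blood cell types moved in the late comparison in which CRY1, CRY2, NR1D1 and DBP were called. T cell markers were lower in 7 of 10, with summed levels of 1496 to 3810 CPM in controls and 631 to 2106 CPM late, and B cell markers in 8 of 8, from 329 to 2491 CPM to 125.4 to 504 CPM. Neutrophil markers were higher in 7 of 8 (714 to 7186 CPM in controls, 3544 to 10081 CPM late), platelet markers in 5 of 5 (793 to 4082, then 1512 to 6659 CPM) and monocyte markers in 3 of 7 (588 to 4063, then 1452 to 3942 CPM). Of 6 cytotoxic markers 1 was lower (281 to 2070, then 352 to 1177 CPM), and of 9 erythroid markers 1 was higher and 1 lower (2129 to 11096, then 1509 to 22300 CPM). None of these markers was at 0 throughout. Early, B cell markers were lower in 8 of 8 and erythroid markers higher in 9 of 9, while 0 of 10 T cell markers were called. The part of blood cell makeup in the changes of the clock genes was not tested.

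Of 9 glucocorticoid-induced genes, 6 were called higher late, among them IL1R2 (log2 fold change 3.20 ± 0.59; edgeR, adjusted p = 0.000214), ZBTB16 (2.08 ± 0.44, adjusted p = 0.000656), CD163, DUSP1, FKBP5 and ZFP36, with a list median of 1.02 and summed levels of 1494 to 4735 CPM in controls and 2038 to 10138 CPM late. Early 0 of 9 and medium 1 of 9 (IL1R2, 0.80 ± 0.27; edgeR, adjusted p = 0.0172) were called higher, and that call was lost in 3 alternatives. PER1 and ZFP36 are known targets of glucocorticoids, and the part of dexamethasone in the late values was not tested.

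Day by day, over 9 members and 15 scheduled days, 12 calls were made, all 12 of them lower. That is 8.89% of member and day pairs, where 12.6% of such pairs over all genes were called in either direction and 6.29% lower. NR1D1 came first, at -0.60 ± 0.14 on Day 30 (edgeR, adjusted p = 0.00129), a day on which 1.33% of all genes were called lower. With TMM or DESeq2 scaling it stood at -0.58 on that day, and with a term for library series at -0.45 (edgeR, adjusted p = 0.073), short of a call. On Day 40, where 2.85% of all genes were called lower, the called members were NR1D1 (edgeR, log2 fold change -0.73 ± 0.12, adjusted p = 3.01e-05, lower in 24 of 24 animals) and DBP (-0.62 ± 0.11, adjusted p = 9.08e-05). Without the Day 40 library of B2007, DBP stood at -0.54 on that day (edgeR, adjusted p = 1.78e-06), and with TMM at -0.58, both short of the fold limit. On the same day 7 of 10 T cell markers were called lower, with summed levels of 1579 to 4021 CPM in controls and 278 to 2578 CPM on Day 40, and their part was not tested.

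On Days 120 and 150 CRY1, CRY2, NR1D1 and DBP were all called lower, as were 19.1% and 19.5% of all genes. On Day 120 (12 animals) the log2 fold changes were -0.83 ± 0.19 for CRY1, -0.71 ± 0.12 for CRY2, -0.76 ± 0.25 for NR1D1 and -0.90 ± 0.24 for DBP, with edgeR adjusted p of 0.00213, 0.000347, 0.0193 and 0.00595. On Day 150 (9 animals) they were -0.66 ± 0.20, -0.86 ± 0.16, -0.88 ± 0.24 and -1.05 ± 0.22 in the same order, with adjusted p of 0.0169, 0.000681, 0.00976 and 0.00175. CRY2 was lower in every animal on both days. Its ranges were 37.9 to 59.4 CPM in controls, 19.5 to 36.4 CPM on Day 120 and 18.3 to 36.3 CPM on Day 150. DBP went from 27.7 to 51.3 CPM in controls to 5.58 to 35.1 CPM on Day 150, lower in 9 of 9 animals. With DESeq2 CRY2 stood at -0.57 on Day 120, short of the fold limit. One fit over all samples with a term for library series gave CRY2 -0.66 on Day 120 and -0.74 on Day 150 (edgeR, adjusted p = 1.9e-08 and 1.24e-07). That fit counts repeated draws of an animal separately, so these p-values cannot be set beside those of the single days. Most animals with late draws had none in the series of their control, which limits what the series term can correct.

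With 6 animals a day from Day 180 on, CRY1 was the last member called, at -0.67 ± 0.18 on Day 180 (edgeR, adjusted p = 0.0161), where 9.86% of all genes were called lower. Without the 9.8 Gy female B1503 that value was -0.51 (edgeR, adjusted p = 0.0546). CRY2 was at -0.57 ± 0.14 on Day 180 and -0.54 ± 0.18 on Day 210 (edgeR, adjusted p = 0.0100 and 0.0340). It was at -0.60 ± 0.18 on Day 240 and -0.78 ± 0.24 on Day 270 (adjusted p = 0.0616 and 0.0847). On Days 180, 240 and 270 the CRY2 ranges of controls and draws did not overlap, and on Day 210 they did. The share of all genes with separate ranges on these days was not counted, so whether the separation is particular to CRY2 is not known. No member was called on Days 210, 240 and 270, where 29.8%, 6.76% and 0.00727% of all genes were called, while 4, 3 and 3 members and 51%, 27.9% and 29.5% of all genes had an unadjusted p under 0.05. On the other days without a called member the share of all genes called was 11.5% (Days 3 and 6), 7.58% for Day 9, 6.01% for Day 15, 10.4% for Day 21, 4.23% (Day 60) and 7.06% (Day 90). The 15 comparisons share the control samples, so they are not independent of each other.

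**Figure D3:**
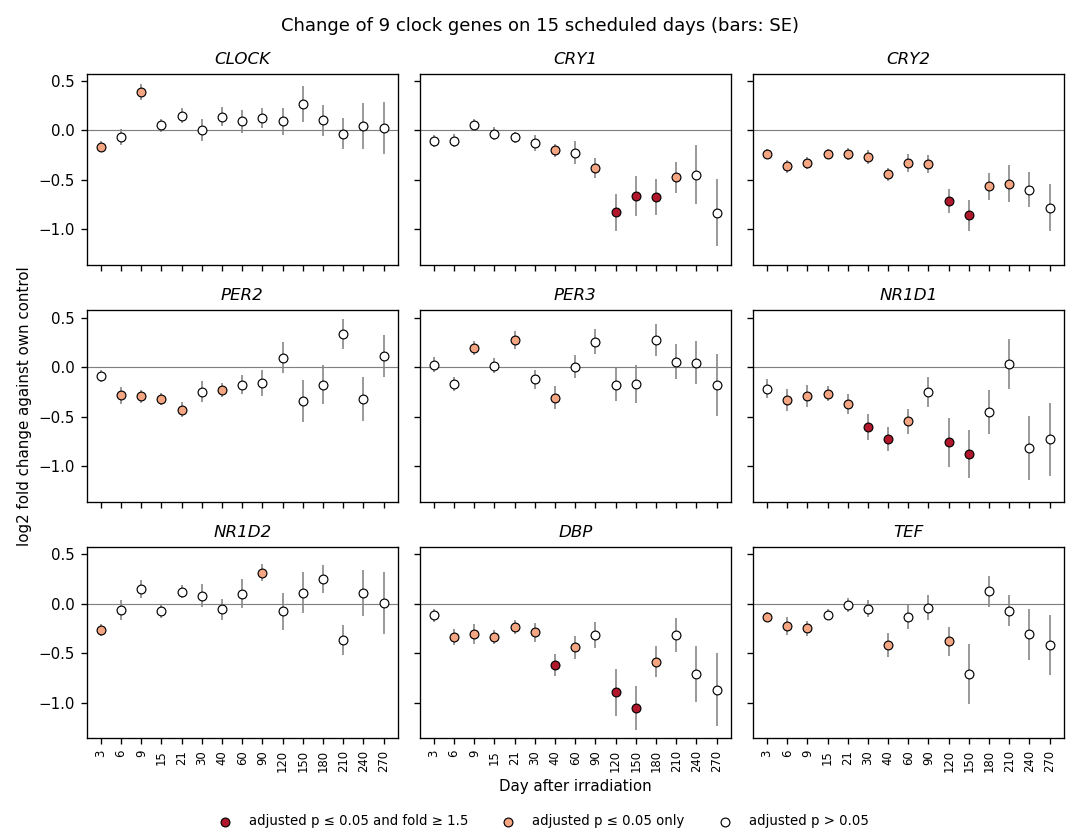
Log2 fold change of each clock gene against the animals' own controls (vertical axis; bars, SE) on 15 scheduled days (horizontal axis), dark red where called, light where only adjusted p was at most 0.05, open otherwise. Dark points are in the panels of CRY1, CRY2, NR1D1 and DBP on Days 30, 40, 120, 150 and 180, and DBP on Day 150 is the lowest at -1.05.

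A comparison of late with early draws of the same 16 animals used no control sample. There CRY1 was the only member called, in a comparison that called 20.2% of all genes lower: its summed level went from 13.2 to 19.2 CPM (median 18.1) early to 4.83 to 16.2 CPM (median 10.9) late, a log2 fold change of -0.68 ± 0.11 (edgeR, adjusted p = 2.05e-05), lower in all 16 animals. With DESeq2 it was -0.53, short of the fold limit. CRY2 was also lower in all 16 animals, at -0.41 ± 0.07 (edgeR, adjusted p = 6.22e-05). DBP was at -0.53 ± 0.12 (adjusted p = 0.000548) and NR1D1 at -0.40 ± 0.13 (adjusted p = 0.0103) in the same test. PER2 was higher late, at 0.34 ± 0.09 (edgeR, adjusted p = 0.00247), higher in 14 of 16 animals. The median of all genes was -0.18 here, and only 2 animals had early and late draws within series C, where CRY1 was at -0.81 (edgeR, adjusted p = 0.111).

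Ratios between paralogs within a library do not depend on scaling. They were compared in each animal as the log2 ratio of summed counts (0.5 added), by a two-sided permutation test with sign flips, adjusted over 9 tests. The ratio of CRY2 to CRY1 was lower early in 20 of 24 animals, with a change of -0.21 ± 0.28 (SD; permutation test, adjusted p = 0.00333), and at 0.13 ± 0.49 late (permutation test, adjusted p = 0.473). PER3 relative to PER2 was higher early in 18 of 24 animals, by 0.34 ± 0.47 (permutation test, adjusted p = 0.00546). NR1D1 relative to NR1D2 changed by -0.60 ± 0.62 medium, lower in 20 of 24 animals (permutation test, adjusted p = 0.0009), and by -0.69 ± 1.03 late, in 12 of 14 (adjusted p = 0.034). The other tests of ratios gave adjusted p between 0.0943 and 0.546.

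Whether the change depended on dose was tested by the interaction of dose with irradiation. Early, no member and no gene was called (0% of genes), by edgeR or DESeq2, while 761 genes (5.53%), PER3 and TEF among them, had an unadjusted p under 0.05 in edgeR. The interval of the difference for CRY2 was -0.29 to 0.05 on the log2 scale (95%). On Days 30 to 60, with 12 animals of each dose, PER3 was called, where 0.56% of all genes were called in that direction. The 9.8 Gy animals had draws on Days 30, 40 and 60, while the 10.7 Gy animals B2005, B2007 and B2503 had none on Day 60. B2007, whose Day 40 library stood apart, had the largest decrease of PER3 (-0.96 on the log2 scale). In 9.8 Gy animals PER3 went from 11.5 to 33.7 CPM (median 20.04) in controls to 15.3 to 43.1 CPM (median 22.9), higher in 10 of 12. In 10.7 Gy animals it went from 16.1 to 36.3 CPM (median 27.01) to 11.8 to 30.1 CPM (median 19.1), lower in 11 of 12.

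The mean log2 change of PER3 was thus 0.17 ± 0.22 (SD) at 9.8 Gy and -0.48 ± 0.31 at 10.7 Gy, and the interaction was -0.65 ± 0.12 (SE; edgeR, adjusted p = 0.000969). NR1D2 (interaction -0.50 ± 0.15, adjusted p = 0.0401) and TEF (-0.44 ± 0.13, adjusted p = 0.0279) passed the p limit of edgeR in the same direction, and under TMM both missed it (0.0503 and 0.0565). For CRY2 the interaction was -0.15 ± 0.10, with a 95% interval of -0.35 to 0.04. The 4 controls of series C, all of 10.7 Gy animals, had higher levels of PER3 (30.6 ± 3.80 against 21.9 ± 6.27 CPM in the 20 of series A, SD), TEF (31.4 ± 2.09 against 19.1 ± 3.14), NR1D1 (19.9 ± 2.37 against 12.7 ± 3.18) and DBP (56.4 ± 6.91 against 38.9 ± 8.77). Without these 4 animals the PER3 interaction was -0.57 (edgeR, adjusted p = 0.00956), short of the fold limit, that of NR1D2 was -0.61 (adjusted p = 0.029), past it, and that of TEF was -0.28 (adjusted p = 0.157). Without the animal as a block the PER3 value was -0.63 with an adjusted p of 0.194. In the main fit of this comparison 3.37% of all genes were called higher at 10.7 Gy. There 8 of 8 neutrophil markers and 4 of 9 glucocorticoid-induced genes differed, both higher at 10.7 Gy, and 0 of 10 T cell markers. Their part in the result was not tested.

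**Figure D4:**
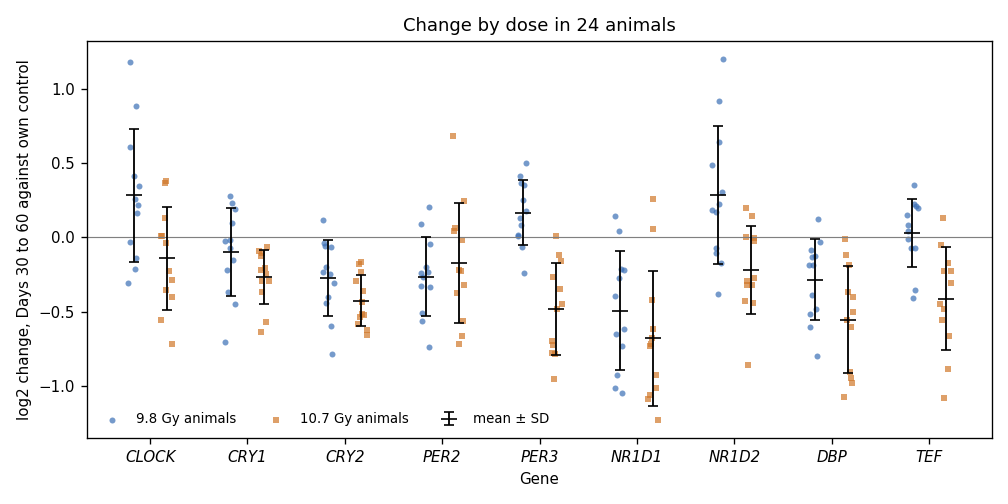
Log2 change of each clock gene from its own control to the summed draws of Days 30, 40 and 60 (vertical axis) in 12 animals of 9.8 Gy (blue circles) and 12 of 10.7 Gy (orange squares), with mean ± SD in black. The 10.7 Gy animals B2005, B2007 and B2503 had no Day 60 draw. For PER3 the means lie at 0.17 and -0.48, and for CRY2 the 2 groups overlap.

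Whether the early change depended on sex was tested in the same way, and no member and no gene was called (0% of genes), by edgeR or DESeq2. The 95% interval of the difference (male minus female, log2 scale) was -0.15 to 0.21 for CRY2 and -0.33 to 0.35 for NR1D1. At an unadjusted p under 0.05 the edgeR count was 0 members, against 0.894% of all genes.

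Of 25 other genes of the clock and its control, 21 could be tested. Early, 2 were called lower and none higher: BHLHE41, a repressor of the CLOCK complex (log2 fold change -0.80 ± 0.07; edgeR, adjusted p = 6.66e-10), and USP2, a deubiquitinase (-0.66 ± 0.11, adjusted p = 1.28e-05). Of all genes 1.75% were called lower early and 5.79% higher. In the medium window 0 of 21 were called, with a median of 0.05, where 5.75% of all genes were called. Late, 4 were called higher and 4 lower, with a median over the 21 of -0.08 against -0.13 over all genes. Of all genes 14% were called higher late and 18.5% lower. Late higher were NFIL3, a repressor of D-box genes (1.35 ± 0.25; edgeR, adjusted p = 0.000263), PER1, the third period gene (1.34 ± 0.33, adjusted p = 0.00231), and KLF10 (1.06 ± 0.10, adjusted p = 6.88e-07). PER1 went from 30.2 to 105.1 CPM (median 44.7) in controls to 39.7 to 369 CPM (median 131.4) late, higher in 11 of 14 animals. USP2 (-1.93 ± 0.26; edgeR, adjusted p = 1.38e-05), BHLHE41 (-1.11 ± 0.13, adjusted p = 6.09e-06) and HLF, the third PAR bZIP gene (-1.03 ± 0.28, adjusted p = 0.00419), had the largest late decreases. TIMELESS was also called lower late (-0.97), and ARNTL, the partner of CLOCK, was at 0.37 late (edgeR, adjusted p = 0.00565), below the fold limit. Both are named here after their values were seen.

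How the members ran together was described by Pearson's r of log2 CPM after subtraction of each animal's mean, over the 24 controls and 280 later samples, which share animals, library series and depth. Over all samples CRY2 ran closest with DBP (r = 0.81), then TEF (0.69) and NR1D1 (0.68), and CLOCK with NR1D2 (0.76). In that pool PER2 stood apart from both groups, with r between -0.37 (NR1D2) and 0.20 (NR1D1). Over the early samples alone CRY2 and DBP had r = 0.49, and CLOCK and NR1D2 0.77. There PER2 had r = 0.44 with NR1D1, 0.37 with DBP and -0.45 with NR1D2. Over the late samples CRY2 and DBP had 0.82, DBP and TEF 0.84, and PER2 and NR1D1 0.35. CRY1 and CRY2, near relatives, had r = -0.01 over the early samples and 0.48 over the 53 late ones.

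Outside the clock the genes most like CRY2 among 13751 were MTG1 (r = 0.87), POLRMT (0.85), CARMIL2 (0.85), FBXO31 (0.85) and IL21R (0.85). Most unlike it were FEM1C (-0.82), SH3GLB1 (-0.81), SDCBP (-0.81), HIPK3 (-0.81) and JAK2 (-0.80). These likenesses carry no test. The nearest gene to DBP was FAM102A (0.92), to CLOCK ZNF800 (0.88), to NR1D2 CASD1 (0.87) and to TEF BCL9L (0.82). CRY1 was most like ZNF827 (0.80), NR1D1 most like CELSR2 (0.78) and PER2 most like BRD2 (0.67). With the mean of the T cell markers r was 0.82 for DBP, 0.78 for CRY1, 0.71 for CRY2, 0.69 for TEF, 0.66 for PER3, 0.63 for NR1D1, 0.45 for NR1D2, 0.36 for CLOCK and -0.21 for PER2. With the mean of the B cell markers r ran from -0.07 (PER2) to 0.70 (CRY2). With the mean of the neutrophil markers it was 0.27 for PER2 and between -0.73 (CRY1) and -0.43 (CLOCK) for the other members. With the glucocorticoid-induced genes it was 0.36 for PER2 and between -0.77 (CRY1) and -0.47 (NR1D1) for the others.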

How the data were processed

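RNA of whole blood was sequenced in 24 control and 280 later samples of 28 animals. Per the labels and methods, the authors trimmed reads with cutadapt 2.10, aligned them with STAR 2.7.6a to Mmul_10 and counted them per gene with Subread 2.0.1, and the deposited counts are raw. The authors also deposited log2 values, scaled by upper quartile, which were used only in an alternative. Samples were grouped by animal, day and dose from the labels. Totals ranged from 2840219 to 23638161 counts, and intervals cover the modelled spread between animals only.

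Counts were tested in R 4.3.3 with edgeR 4.0.16 (quasi-likelihood, upper-quartile scaling, animal as block, at least 3 counts in 80% of samples, Benjamini-Hochberg), and tests were run on simulated data first. The animal pairs samples because each animal gave its own control. Repeated draws of an animal were summed within a window, so that it counted once. Ratios were tested with 100000 sign flips in Python 3.11.15 with SciPy 1.17.1. Alternatives used DESeq2 1.42.0, limma 3.58.1 on the log2 values, TMM, other filters, no block, 1 fit over all samples, a term for library series, and left-out animals or libraries. Leaving out B2007 or the animals with a series C control was chosen after seeing the data.

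The members and lists were chosen with earlier results of these data known. Genes were named by a rule: all members, up to 3 other clock genes per direction and window, the called genes of the glucocorticoid list, the 5 genes most like and unlike CRY2 and the 1 most like each other member. Some genes that this rule or a count covers are not reported here. Coordinates and promoters come from RefSeq on Mmul_10.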

Additional observations from a re-analysis of the deposited data

Results flagged for a closer look

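Among 54 groups of 4 to 10 samples of 1 gene, dose and day, 4 held a sample far from the others by Dixon's criterion, where chance flags about 1 in 20 groups. All 4 were groups of 5 animals of 9.8 Gy. CRY1 on Day 180 had a highest value of 15.9 CPM, with the next at 11.4 CPM, and CRY2 on the same day a highest value of 38.1 CPM, with the next at 29.5 CPM. CRY1 on Day 240 had a lowest value of 7.02 CPM, with the next at 16.9 CPM. DBP on Day 270 had a lowest value of 7.21 CPM, with the next at 33.6 CPM.

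The change from control to Days 30 to 60 differed between doses for 3 members by the edgeR interaction (10.7 Gy minus 9.8 Gy, log2 scale, adjusted p of at most 0.05). PER3 differed by -0.65, NR1D2 by -0.50 and TEF by -0.44. Of all genes 7.92% passed this p limit. Under TMM NR1D2 and TEF missed it, and without the animal as a block PER3 missed it. Without the animals with a series C control TEF missed the p limit and PER3 was short of the fold limit, while NR1D2 passed both.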

How the results depend on the processing

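Counts of called members moved with several choices. Without the fold limit they were 5 early, 6 medium, 7 between early and late, 3 for dose at Days 30 to 60 and 55 over the scheduled days. Of all genes 49.1% passed early, 45.3% medium, 69.7% between early and late and 7.92% for dose at Days 30 to 60. On single scheduled days the share of all genes passing ran from 0.00727% (Day 270) to 53.9% (Day 3). In the late window DESeq2, TMM and no filter on low counts each gave 2 in place of 4. Between early and late, DESeq2, series C draws and no filter each gave 0 in place of 1. In the medium window limma gave 1 and the control's library series 4, in place of 0. Over the scheduled days 1 fit over all samples gave 22, that fit with library series 21, and the control's library series 5 on 7 days, where the separate fits gave 3. The fit over all samples also called more of all genes on late days, with 4978 genes on Day 270 against 1 in the separate fit. On Day 240 it called 3715 against 930, while on Day 9 it called 1000 against 1042. Without the animal as a block the dose count at Days 30 to 60 was 0 in place of 1, the days gave 13 in place of 12, and dropping the pairing moved no other count. The NR1D1 to NR1D2 ratio in the medium window was -0.96 in 4 animals of the same series (adjusted p = 0.188, exact permutation test), where 4 animals cannot give an exact p below 0.125, so this test could not pass. Leaving out 1 animal gave 0 to 0 early, 0 to 1 medium (1 without B2502), 3 to 4 late (3 without B2504) and 11 to 14 over the days, where only Days 180 to 270 were refitted. The cause was not tested in any of these. Of 2477 alternatives for single genes, 27 lost a call, 41 gained one and 0 reversed a called value. Low counts limit single values, such as the 3 counts of TEF in the Day 40 library of B2007 and the 18 counts of NR1D1 in the Day 94 library of B2504.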

Other observations

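Unscheduled draws were taken from 8 animals between Day 71 and Day 172, and they entered the windows but no scheduled day. CRY2 ran from 23.1 to 42.9 CPM in them.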
